A study of Mus musculus with 50 samples.

Results

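Gene expression was compared between 2 haematopoietic progenitor populations, LSK and GMP, sorted from mice whose labels give the genotype Npm1 Flt3. These were 8 of the 50 libraries of the series, 4 of LSK cells and 4 of GMP, taken by their titles and cell type labels without use of any measured value. The genotype name stands for mutant alleles of both genes; the labels do not say which alleles, which recombinase of Cre, Dre or Flp activated each, in which cells, or the age of the mice. The mice of the series were killed either at a set time or once symptomatic, and for Npm1 Flt3 no time is given. By the code numbers in the descriptions, animals 1, 2 and 5 each gave both populations and are replicates 1, 2 and 4 of each group; LSK replicate 3 came from animal 3 and GMP replicate 3 from animal 4. Where a fit below has the animal as a block, these last 2 libraries have no partner. The LSK to GMP difference in such a fit rests on animals 1, 2 and 5. Reference groups were LSK and GMP of Dnmt3a Flt3 mice (2 libraries of each used), of WT mice at 4 weeks (3 of each) and of mice with mutant Flt3 alone at 4 weeks (3 of each). Every mutant group carries a mutant Flt3 allele, so these libraries hold no Npm1 mutant without one.

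LSK cells are lineage-negative bone marrow cells with the surface proteins Sca-1 and Kit, the compartment that contains haematopoietic stem cells and multipotent progenitors. Granulocyte-monocyte progenitors (GMP) lie further along the myeloid branch, carry Kit, CD34 and the Fc receptors CD16/32, and make the serine proteases and peroxidase of the first neutrophil granules. NPM1 is a nucleolar chaperone whose mutant form in acute myeloid leukaemia is moved to the cytoplasm and is associated with high HOXA cluster and MEIS1 expression. FLT3 is a receptor tyrosine kinase of early progenitors; mutants with an internal tandem duplication signal without ligand, with STAT5 among the activated factors.

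Counts per gene summed to between 60934043 and 128057407 per library, and the percentage of counts in mitochondrially encoded genes was between 0.445 and 1.39. That percentage leaves out part of these genes, since mt-Co3, mt-Atp6, mt-Atp8 and mt-Nd4l had no count in any of the libraries. On a principal component analysis of the 1000 most variable genes the first component (48.9% of the variance) separated the 2 populations. On the second (15.7%), LSK replicate 4 stood apart, at 77.83 against -33.22 to 27.69 in the other 7 libraries. The 50 most abundant genes took 11.95 to 14.89% of the counts in LSK and 16.76 to 19.53% in GMP (13.8 ± 1.34 against 17.78 ± 1.26, SD, n = 4 each; exact permutation test, two-sided, p = 0.0286, the smallest that 4 against 4 libraries allow; 0.0571 after Benjamini-Hochberg adjustment over 14 library measures). Of 15538 genes tested, 642 (4.13%) passed an adjusted p of 0.05 in edgeR's quasi-likelihood test and are called higher or lower here. Of those, 353 (2.27%) were higher in LSK and 289 (1.86%) lower, and 2684 genes had an unadjusted p below the same threshold. Of the alternatives cited below, DESeq2 called 1643 genes and the fit with the animal as a block 812, so their list counts stand against more calls. The blocked fit called more genes lower than higher in LSK, the reverse of the balance above, and shared 394 of the 642 calls. The median log2 fold change over all genes tested was 0.0257. All fold changes below are LSK minus GMP on the log2 scale with their SE; levels are CPM, counts divided by the library size after trimmed-mean scaling, and are listed for replicates 1 to 4. In sorted bulk cells, a different number of cells of a type and a different amount of RNA per cell cannot be told apart.

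The genes of the sorting antigens and the mutated genes were examined first. Ly6a, which encodes Sca-1, was at 189, 153, 199 and 118 CPM in LSK and at 4.23, 4.32, 3.34 and 5.38 in GMP. Fcgr3, which encodes the CD16 receptor, was at 14.4, 8.86, 13.8 and 10.0 CPM in LSK and at 200, 401, 278 and 372 in GMP. Both follow the gates that separated the cells and are a check of the labels, not a finding; no LSK library overlapped a GMP library for either. Kit, whose protein is present in both gates, was at 72.0, 100, 150 and 70.5 CPM in LSK and at 177, 271, 131 and 173.97 in GMP. Its groups overlapped and it was not called (-0.94 ± 0.29, adjusted p = 0.114), but with the animal as a block it was lower in LSK (-1.35, adjusted p = 0.0141). Cd34 did not pass the test (0.45, adjusted p = 0.314). Among the other surface genes of these gates, Fcgr2b, the inhibitory Fc receptor CD32, was lower in LSK (-1.80 ± 0.33, adjusted p = 0.0163), a call lost without LSK replicate 2 (adjusted p = 0.0718). CD32 is part of the GMP gate, so this too is a check of the labels. Cd48, a ligand of the SLAM family that marks restricted progenitors, was higher (0.84 ± 0.19, adjusted p = 0.0337), with the call held in 2 of 8 fits that left out 1 library (highest adjusted p = 0.101, without GMP replicate 4).

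Transcript levels of the mutated genes did not pass the test between the populations. Flt3 was at 610, 466, 417 and 509 CPM in LSK and at 383, 248, 422 and 484 in GMP, with overlapping groups (0.38 ± 0.22, adjusted p = 0.416). Npm1 was at 1251, 1254, 1136 and 1846 CPM in LSK and at 1050, 908, 1438 and 1097 in GMP (0.29 ± 0.21, adjusted p = 0.535). Dnmt3a, a de novo DNA methyltransferase not mutated in these mice, was at 73.0 to 82.5 CPM in LSK and 41.8 to 69.3 in GMP; the groups did not overlap, yet the test was not passed (0.42 ± 0.19, adjusted p = 0.303). Gene counts do not separate mutant from normal transcripts.

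A first group of genes lower in LSK is from a list named for the primary (azurophil) granules, made at the promyelocyte stage. Not every member of this list encodes a content of those granules, among them Hp, Ms4a3 and the factors Gfi1 and Cebpe. The list is called primary granule genes below. The 250 bases before the annotated start of 4 of these genes are shown because GGAAGT, the core of the element bound by the myeloid factor PU.1, occurs once in each. They are from RefSeq's mouse table on GRCm38.p6, written 5′ to 3′ on the gene's strand, with the match in capitals.
Mpo (chr11:87793534-87793783, plus strand): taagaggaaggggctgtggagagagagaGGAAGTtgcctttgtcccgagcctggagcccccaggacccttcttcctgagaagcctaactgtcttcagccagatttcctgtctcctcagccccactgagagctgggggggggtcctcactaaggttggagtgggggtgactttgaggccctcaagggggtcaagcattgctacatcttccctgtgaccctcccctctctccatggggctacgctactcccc
Elane (chr10:79886062-79886311, plus strand): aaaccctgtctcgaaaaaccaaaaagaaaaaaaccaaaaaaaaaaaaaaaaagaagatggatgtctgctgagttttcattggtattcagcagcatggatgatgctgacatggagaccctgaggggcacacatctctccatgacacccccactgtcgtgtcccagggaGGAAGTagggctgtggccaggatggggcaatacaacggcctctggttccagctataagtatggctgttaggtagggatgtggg
Prtn3 (chr10:79879417-79879666, plus strand): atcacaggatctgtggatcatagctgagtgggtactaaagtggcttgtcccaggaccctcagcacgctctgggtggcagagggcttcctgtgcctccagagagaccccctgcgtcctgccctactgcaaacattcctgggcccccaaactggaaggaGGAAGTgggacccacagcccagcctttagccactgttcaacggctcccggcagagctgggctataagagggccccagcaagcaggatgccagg
Ctsg (chr14:56102575-56102824, minus strand): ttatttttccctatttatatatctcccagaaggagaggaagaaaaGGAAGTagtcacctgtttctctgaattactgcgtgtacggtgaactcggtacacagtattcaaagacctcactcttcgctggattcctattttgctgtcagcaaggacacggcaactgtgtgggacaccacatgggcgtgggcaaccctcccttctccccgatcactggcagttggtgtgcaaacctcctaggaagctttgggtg

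The matches begin 222 bases before the start in Mpo, 83 in Elane, 93 in Prtn3 and 205 in Ctsg. The motif was chosen after the sequences had been seen, and both strands were searched. Of the 15 primary granule genes, 11 had an entry in the promoter table and 9 of those held GGAAGT (Cst7, Ctsc, Ctsg, Elane, Fcnb, Mpo, Ms4a3, Prtn3 and Srgn), against 6485 of all 32851 promoters of that length (19.7%). The longer GAGGAAGT, which contains the first motif, was in 4 of the 11 and in 2.44% of all promoters. These counts describe letters in the sequence and carry no measure of binding.

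All 15 primary granule genes were tested; 7 were lower in LSK and none was higher (list median -1.75), and 8 of the 15 lay wholly higher in GMP without overlap, as did 6.4% of all genes tested. Mpo, the peroxidase that makes hypochlorous acid, was at 559, 1214, 1936 and 786 CPM in LSK and at 12422, 35448, 17914 and 24737 in GMP (-4.33 ± 0.47, adjusted p = 0.00099). Elane, neutrophil elastase, was at 98.5, 175, 383 and 143 CPM in LSK and at 4084, 10375, 7178 and 8824 in GMP (-5.25 ± 0.49, adjusted p = 0.000434). For both genes LSK replicate 3 was the highest LSK library and GMP replicate 1 the lowest GMP library, and the groups did not overlap. Prtn3, the elastase-related proteinase 3, was at 328, 320, 482 and 360 CPM in LSK and at 1856, 3477, 3025 and 3440 in GMP (-2.98 ± 0.25, adjusted p = 0.000193). Ctsg, cathepsin G, differed least of the 4 proteases and peroxidase, with 582, 514, 575 and 897 CPM in LSK and 1450, 2129, 2389 and 2675 in GMP (-1.75 ± 0.24, adjusted p = 0.00408). Hp, haptoglobin, was even within each group, at 48.3 to 61.5 CPM in LSK and 438 to 872 in GMP (-3.79 ± 0.25, adjusted p = 5.47e-05). Ms4a3, a membrane protein whose transcription marks the granulocyte-monocyte lineage, was at 26.1 to 69.8 CPM in LSK and 510 to 1061 in GMP (-4.16 ± 0.36, adjusted p = 0.000244). Fcnb, ficolin B, was at 0.171 to 8.72 CPM in LSK and 69.8 to 262 in GMP (-5.05 ± 0.97, adjusted p = 0.0194); this call was lost without LSK replicate 1, LSK replicate 2 or GMP replicate 2 (highest adjusted p = 0.0674, without LSK replicate 1) and with the animal as a block (0.0551).

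The remaining 8 primary granule genes did not pass the test, among them Ctsc, the dipeptidase that activates the granule proteases (-0.05, adjusted p = 0.92), and Cst7, the inhibitor cystatin F (-0.48, adjusted p = 0.2). Cebpe, a factor of the later granulocyte stages, had a larger fitted difference (-4.33) but an adjusted p of 0.08. Its level was low in both populations, 0 to 0.392 CPM in LSK and 1.81 to 11.2 in GMP. Genes of the late neutrophil granules gave few calls, and Padi4 and Ly6g had fitted values above 0 (0.97 and 0.14, adjusted p = 0.174 and 0.975). Of the 15, 2 were lower in LSK (list median -1.14). These were Mmp8, neutrophil collagenase (-3.36 ± 0.77, adjusted p = 0.0398), and Chi3l3, a chitinase-like lectin (-2.12 ± 0.49, adjusted p = 0.0424). Their calls held in 1 and 2 of the 8 fits that left out a library (highest adjusted p = 0.127 without LSK replicate 2 and 0.133 without GMP replicate 2), Mmp8 was not called with the animal as a block (0.127), and the blocked fit called 6 of the 15 lower. The summed level of the late neutrophil list was 291.6 to 785.4 CPM in LSK and 566.5 to 1984 in GMP (exact permutation p = 0.143).

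**Figure D1:**
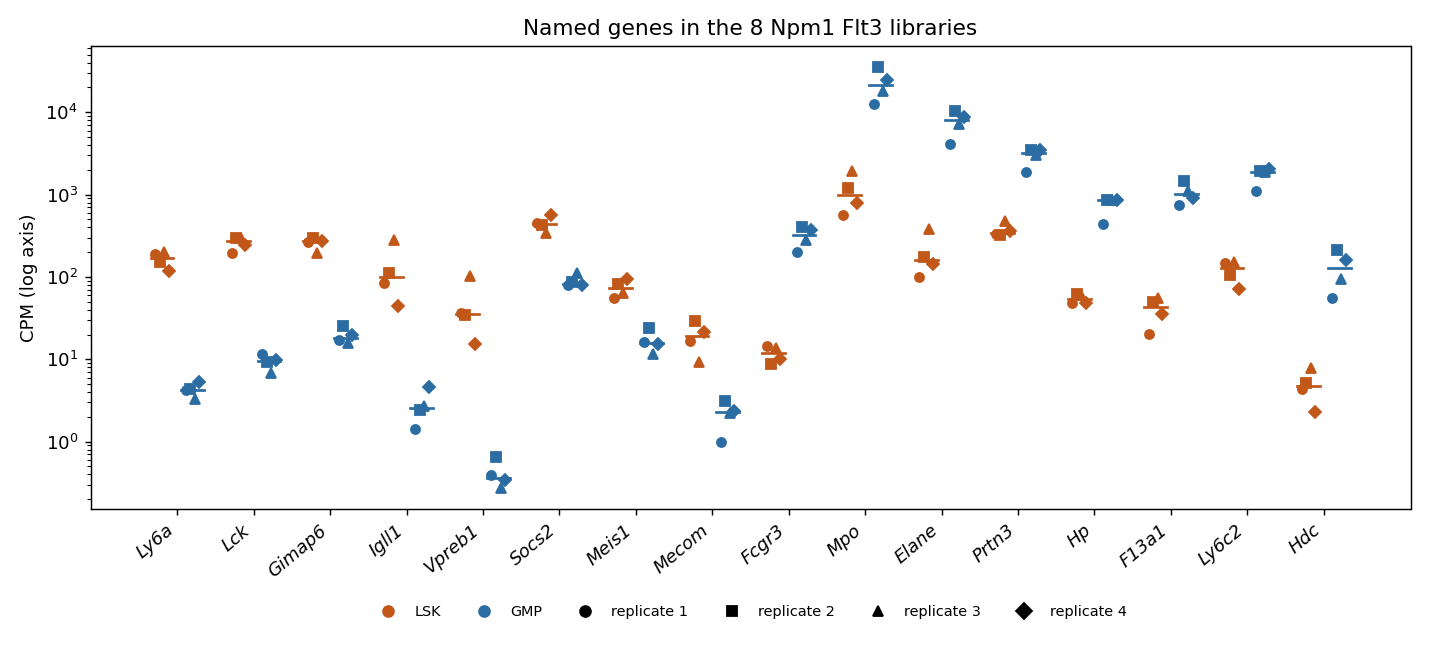
Level of 16 named genes in each of the 8 Npm1 Flt3 libraries, in CPM on a log axis; colour gives the population, the symbol the replicate, and the short line the median of a group. The 4 LSK and 4 GMP libraries do not overlap for any gene drawn: Ly6a to Mecom are higher in LSK, and Fcgr3 to Hdc are lower. All are called genes, and 640 of the 642 called genes do not overlap, so the gap follows from the choice of genes.

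Monocyte genes were also lower in LSK. Of 17 monocyte and macrophage genes, 9 were lower and none higher (list median -1.57; the blocked fit called 12 lower). F13a1, the coagulation factor XIII A chain of monocytes and platelets, was at 20.3, 50.1, 56.0 and 35.6 CPM in LSK and at 756, 1446, 1119 and 903 in GMP (-4.70 ± 0.36, adjusted p = 0.000145). Ly6c2, the surface antigen of inflammatory monocytes, was at 148, 105, 153 and 71.2 CPM in LSK and at 1108, 1926, 1865 and 2019 in GMP (-3.86 ± 0.31, adjusted p = 0.000156). Every LSK library was below every GMP library for both. Smaller differences were seen for Csf1r, the M-CSF receptor (-2.48 ± 0.38), Ms4a6c (-2.04 ± 0.23), Lyz2, lysozyme (-1.57 ± 0.19), and Emb, embigin (-1.09 ± 0.17). Zeb2, a zinc finger transcriptional repressor active in monocyte and dendritic development, was also among them (-2.19 ± 0.35). The adjusted p of these 5 was between 0.00116 and 0.00754. Cd14, the endotoxin co-receptor (-4.32 ± 1.01, adjusted p = 0.0433), held in 1 of 8 fits without a library (highest adjusted p = 0.142, without LSK replicate 2) and was lost in the blocked fit (0.106). Ccr2, the chemokine receptor of monocytes leaving the marrow (-1.46 ± 0.34, adjusted p = 0.0406), held in 2 of the 8 (highest adjusted p = 0.131, without LSK replicate 2). The regulators Irf8 (-0.83, adjusted p = 0.36) and Klf4 (-1.62, adjusted p = 0.07; 0.0355 with the block) did not pass.

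Beyond the lists, the 10 largest differences lower in LSK (mean log2 CPM of at least 4) included 2 receptors of myeloid cells. Igsf6, an immunoglobulin superfamily receptor, was at 8.09, 13.9, 12.6 and 13.4 CPM in LSK and at 153, 365, 185 and 234 in GMP (-4.29 ± 0.32, adjusted p = 0.000132). Trem3, of the family of receptors that signal through DAP12, was at 2.04 to 5.76 CPM in LSK and 36.2 to 94.0 in GMP (-3.88 ± 0.43, adjusted p = 0.000999). Both calls held in every fit that left out 1 of the 8 libraries.

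Genes of mast cells, basophils and eosinophils were divided. Of 10 tested, 4 were lower in LSK (list median -4.66). Prg2, the eosinophil major basic protein, was at 1.04, 7.38, 5.44 and 4.43 CPM in LSK and at 208, 387, 57.9 and 507 in GMP (-5.99 ± 0.79, adjusted p = 0.00289). Hdc, histidine decarboxylase, which makes histamine, was at 4.30, 5.22, 7.95 and 2.28 CPM in LSK and at 55.4, 210, 93.8 and 161 in GMP (-4.72 ± 0.52, adjusted p = 0.000999). GMP replicates 2 and 4 were the 2 highest for both, as they were for the summed list (936.1 and 995.2 CPM, against 385.5 and 331 in GMP replicates 1 and 3 and 89.32 to 266.1 in LSK; exact permutation p = 0.0286, adjusted 0.0571). Prss34, a basophil protease, was at 0.337, 0, 0 and 0 CPM in LSK and 9.58 to 36.7 in GMP (-8.24 ± 1.41, adjusted p = 0.011; 0.068 with the animal as a block). Fcer1a, the IgE receptor chain, had 2 counts over the 4 LSK libraries and 535 over the GMP libraries, a ratio of 227.3 with an exact 95% counting interval of 62.61 to 1881; its call was lost without LSK replicate 2, GMP replicate 2 or GMP replicate 4 (highest adjusted p = 0.0779, without LSK replicate 2) and with the block (0.0667). The mast cell and basophil proteases Mcpt8 (0.12, adjusted p = 0.9) and Cpa3 (0.38, adjusted p = 0.67) had similar levels in the 2 populations and overlapping groups. Vcam1, an adhesion molecule that stood on the list of iron-recycling macrophage genes, was at 0.111 to 3.50 CPM in LSK and 19.9 to 116 in GMP (-4.86 ± 0.92, adjusted p = 0.0183; lost without LSK replicate 1, LSK replicate 2 or GMP replicate 2, up to 0.0645). None of the other 12 genes of that list passed, and Slc40a1 was called lower with the block (-3.10, adjusted p = 0.0342).

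Genes of stem cells and early progenitors were higher in LSK. Of 18 stem cell genes tested, 6 were higher and none lower (list median 1.67). Among the 6 was Ly6a, whose protein defines the LSK gate and which is no finding. Mecom, the EVI1 zinc finger factor required by stem cells, was at 16.7, 29.0, 9.24 and 21.7 CPM in LSK and at 0.999, 3.09, 2.26 and 2.34 in GMP (3.14 ± 0.49, adjusted p = 0.00706). Mycn, the MYC relative of early progenitors, was at 138, 159, 111 and 200 CPM in LSK and at 0.777, 3.09, 7.64 and 0.153 in GMP (5.70 ± 0.97, adjusted p = 0.011). Both calls held in all 8 fits that left out a library and with the animal as a block. Robo4, a receptor of stem and endothelial cells, had no count in the 4 GMP libraries and 1117 in LSK, which at a floor of 3 counts over the GMP group is at least 438.3-fold higher in LSK (adjusted p = 0.0228). Myct1 was at 3.32 to 17.7 CPM in LSK and 0.211 to 1.48 in GMP (3.65 ± 0.78, adjusted p = 0.03). The calls of Robo4 and Myct1 were lost in the blocked fit (0.077 and 0.0588) and with single libraries left out, of which LSK replicate 2 gave the highest adjusted p (0.0824 and 0.084). The blocked fit called 3 of the list higher and 1, Sult1a1, lower (-1.34, adjusted p = 0.0276), and DESeq2 called 8 higher and 1 lower. The count of higher genes fell to 3 without LSK replicate 2 or GMP replicate 4. Other genes of long-term stem cells did not pass: Hlf (1.20, adjusted p = 0.24), Mllt3 (0.97, adjusted p = 0.27) and Procr, which encodes the EPCR receptor (5.28, adjusted p = 0.076).

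Of 18 Hox genes and cofactors tested, 3 were higher in LSK and none lower (list median 0.631). Meis1, the homeodomain partner of Hox proteins, was at 55.0, 82.3, 64.1 and 94.3 CPM in LSK and at 16.2, 24.3, 11.7 and 15.5 in GMP, a 4.37-fold difference in the fit (2.13 ± 0.28, adjusted p = 0.00289). Hoxa9 differed less, with 100, 119, 107 and 87.0 CPM in LSK and 49.9, 62.8, 58.6 and 69.3 in GMP (0.78 ± 0.18, adjusted p = 0.0379). The Hoxa9 groups did not overlap, but the call held in 1 of 8 fits without a library (highest adjusted p = 0.136, without LSK replicate 2) and not with the block (0.103). Nkx2-3, a homeobox gene outside the clusters, was at 1.75 to 9.05 CPM in LSK and 0.0541 to 0.309 in GMP (5.25 ± 0.90, adjusted p = 0.0111; 0.0563 with the block). Hoxa5 (1.08, adjusted p = 0.31), Hoxa7 (0.64, adjusted p = 0.16), Hoxa10 (0.62, adjusted p = 0.33) and the cofactor Pbx3 (-0.39, adjusted p = 0.83) did not pass, so Meis1 transcripts differed between the populations while most Hoxa genes gave no call.

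Among 34 haematopoietic transcription factors, 5 were higher in LSK and 2 lower (list median 0.116). With the animal as a block 3 were higher and 5 lower, the latter with Egr1, Id2, Klf4 and Myc (adjusted p = 0.0337, 0.0185, 0.0355 and 0.0337). Besides Mycn, the higher ones were Tcf4, Erg, Gfi1b and Bcl11a. Tcf4, an E protein of lymphoid and plasmacytoid dendritic cells, was at 206, 185, 218 and 147 CPM in LSK. In GMP it was at 68.9, 107, 75.8 and 64.5 (1.26 ± 0.21, adjusted p = 0.00995). Erg is an ETS factor of stem cells (1.77 ± 0.33, adjusted p = 0.0176). Gfi1b is a transcriptional repressor active in the erythroid and megakaryocytic lineages (3.90 ± 0.79, adjusted p = 0.025). Bcl11a is a repressor needed for lymphoid development (1.08 ± 0.21, adjusted p = 0.0195). Lower were Id1, an inhibitor of E proteins (-1.96 ± 0.36, adjusted p = 0.0154), and Cebpa, the factor that drives GMP formation, at 13.2, 8.69, 8.12 and 8.35 CPM in LSK and 27.0, 17.2, 31.5 and 31.9 in GMP (-1.49 ± 0.30, adjusted p = 0.0254). Cebpa, Gfi1b and Bcl11a each held in 3 of 8 fits without a library (highest adjusted p = 0.0877 without LSK replicate 2, 0.075 without GMP replicate 3 and 0.0784 without LSK replicate 2) and were lost in the blocked fit (0.0922, 0.133 and 0.0573). Erg was lost without LSK replicate 2 or GMP replicate 2 (up to 0.0587) and Id1 without LSK replicate 2 (0.0574). Runx1 (0.04, adjusted p = 0.96), Myb (-0.42, adjusted p = 0.44), Gata2 (1.31, adjusted p = 0.18) and Sfpi1, which encodes PU.1 (-1.28, adjusted p = 0.16), did not pass.

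All 8 Gimap genes of the table were higher in LSK (list median 4.48, range 1.95 for Gimap9 to 11.20 for Gimap3). They encode GTPases of lymphocytes and of early progenitors and lie together within 124 kb on chromosome 6 (48647186 to 48770851, GRCm38.p6). Gimap6, with the smallest SE, was at 268, 295, 198 and 276 CPM in LSK and at 17.3, 25.4, 15.7 and 19.5 in GMP (3.74 ± 0.22, adjusted p = 2.08e-05). Gimap3 was at 44.1, 39.9, 17.6 and 29.1 CPM in LSK and at 0, 0, 0 and 0.0451 in GMP. Gimap5 was at 45.8 to 76.2 CPM against 1.37 to 7.24 (4.23 ± 0.51, adjusted p = 0.00161) and Gimap4 at 17.3 to 39.6 against 0 to 0.37 (7.38 ± 1.07, adjusted p = 0.00499). No member overlapped between the groups, where 7% of all genes tested lay wholly higher in LSK. Gimap1, Gimap7 and Gimap8 carried the weaker calls (adjusted p = 0.0265, 0.049 and 0.0475): they held in 4, 1 and 1 of 8 fits without a library (highest adjusted p = 0.0773 without GMP replicate 2, 0.13 and 0.138 without LSK replicate 2), and Gimap1 and Gimap8 were lost with the block (0.0746 and 0.0901).

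Genes of early lymphoid progenitors were another group higher in LSK. Igll1 and Vpreb1 encode the 2 parts of the surrogate light chain, which pairs with the heavy chain on early B cells, and lie close together on chromosome 16. Their promoters are shown because CAGNTG, the form of E-box bound by E proteins such as the Tcf3 and Tcf4 products, occurs in both; the conventions are as above.
Igll1 (chr16:16863986-16864235, minus strand): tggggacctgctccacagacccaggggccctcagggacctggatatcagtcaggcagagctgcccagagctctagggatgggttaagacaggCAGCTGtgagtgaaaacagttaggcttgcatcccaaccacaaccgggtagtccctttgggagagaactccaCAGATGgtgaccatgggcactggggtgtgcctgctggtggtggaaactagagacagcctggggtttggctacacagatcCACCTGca
Vpreb1 (chr16:16869256-16869505, minus strand): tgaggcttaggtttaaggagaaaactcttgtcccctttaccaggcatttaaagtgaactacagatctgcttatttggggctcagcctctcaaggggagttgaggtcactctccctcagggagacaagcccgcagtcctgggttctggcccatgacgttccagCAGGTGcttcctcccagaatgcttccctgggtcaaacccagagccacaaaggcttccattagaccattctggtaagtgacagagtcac

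Of the 3 matches in Igll1, those nearest the start begin 87 and 8 bases before it, the latter on the reverse strand, and the match in Vpreb1 begins 88 bases before. Of the 15 early lymphoid genes, 13 had a promoter entry and 9 of these held CAGNTG; so did 14723 of all 32851 promoters (44.8%), since the motif is short.

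Of the 15 early lymphoid genes, all tested, 8 were higher in LSK and none lower (list median 4.51). Igll1 was at 85.6, 112, 282 and 44.1 CPM in LSK and at 1.41, 2.41, 2.68 and 4.68 in GMP (5.55 ± 0.64, adjusted p = 0.00127). Vpreb1 was at 36.2, 34.8, 101 and 15.2 CPM in LSK and at 0.389, 0.648, 0.277 and 0.342 in GMP (6.84 ± 0.67, adjusted p = 0.000518). LSK replicate 3 was the highest and LSK replicate 4 the lowest for both. Dntt, terminal transferase, which adds bases at antigen receptor joints, was at 132, 254, 413 and 183 CPM in LSK and at 2.61, 0.0926, 0 and 2.94 in GMP (7.43 ± 1.31, adjusted p = 0.013). Il7r, the interleukin-7 receptor, was at 6.95 to 32.2 CPM in LSK and 0 to 0.833 in GMP (6.60 ± 1.45, adjusted p = 0.034). Ebf1, the factor that specifies B cells, was at 14.6, 23.5, 48.3 and 2.67 CPM in LSK and at 0.0721 to 1.52 in GMP (5.30 ± 1.10, adjusted p = 0.0275). Blnk (6.68 ± 1.41, adjusted p = 0.0294), an adaptor of the pre-B receptor, Ltb (4.45 ± 0.83, adjusted p = 0.0173), lymphotoxin beta, and Mef2c (0.78 ± 0.16, adjusted p = 0.022), a factor of lymphoid priming, were also higher. The recombinase genes Rag1 (6.12, adjusted p = 0.063) and Rag2 (4.51, adjusted p = 0.24) did not pass, nor did Notch1 (-0.41, adjusted p = 0.54).

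Igll1, Vpreb1 and Dntt held in all 8 fits without a library and with the block. The other 5 early lymphoid calls did not: Il7r and Ebf1 held in 2 of 8, Blnk and Mef2c in 3 and Ltb in 5, with highest adjusted p values of 0.11 without LSK replicate 2, 0.0949 without GMP replicate 2, 0.0933 without GMP replicate 2, 0.082 without GMP replicate 3 and 0.0636 without GMP replicate 2. Ltb was lost with the block (0.118). The list count fell to 3 without LSK replicate 2 and rose to 10 without LSK replicate 4.

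Genes of mature lymphocytes gave a mixed picture. Of 13 tested, 7 were higher in LSK and none lower (list median 5.59). Lck, a SRC-family kinase of T cells, was at 195, 295, 298 and 245 CPM in LSK and at 11.7, 9.37, 6.91 and 9.95 in GMP, 27.2-fold in the fit (4.77 ± 0.24, adjusted p = 1.36e-05). Cd79a, a chain of the B cell receptor, was at 24.1, 38.4, 84.1 and 14.2 CPM in LSK and 0 to 0.847 in GMP (6.47 ± 1.10, adjusted p = 0.0108). As for Igll1 and Vpreb1, LSK replicate 3 was the highest and LSK replicate 4 the lowest for Cd79a. Trbc1, a constant segment of the T cell receptor, was at 9.51 to 22.5 CPM in LSK and 0 to 0.355 in GMP (7.53 ± 1.33, adjusted p = 0.0133). Ncr1, the NKp46 receptor, had 1 count over the 4 GMP libraries and 2094 in LSK (ratio 2465, exact 95% counting interval 441.9 to 9.74e+04), and Pax5, the B cell identity factor, had 1 and 376 (ratio 442.6, interval 78.95 to 1.753e+04). Pax5 was lost without GMP replicate 2 or GMP replicate 4 (up to 0.0636) and with the block (0.0701). Gzma, granzyme A (7.18 ± 1.61, adjusted p = 0.0358), held in 1 of 8 fits (highest adjusted p = 0.122, without LSK replicate 2) and was lost with the block (0.0548).

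Defining markers of mature T cells were near 0 in the same LSK libraries. In CPM of the unscaled library total, Cd3e, Cd3g and Cd3d, of the CD3 complex, reached at most 0.465, 0.131 and 0.213 in LSK. Ms4a1, which encodes CD20, overlapped between the populations (0.21, adjusted p = 0.97), as did Cd79b (0.36, adjusted p = 0.52). The summed level of the mature lymphocyte list was 333.4, 492, 660.8 and 374.9 CPM in LSK and 74.87 to 88 in GMP (exact permutation p = 0.0286, adjusted 0.0571). Of the plasma cell list, 2 of 7 genes were higher in LSK: Igkc, the kappa constant region, at 28.3, 13.5, 45.9 and 157 CPM against 0.0222 to 0.521 (8.44 ± 1.20, adjusted p = 0.00445), and 2010001M09Rik, the earlier symbol of Mzb1, an endoplasmic reticulum protein of B cells (6.10 ± 1.46, adjusted p = 0.0459; held in 1 of 8 fits without a library, up to 0.129 without GMP replicate 2, and 0.0676 with the block). Igkc was highest in LSK replicate 4, the library lowest in Cd79a. The part of other cell types in these differences was not tested.

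**Figure D2:**
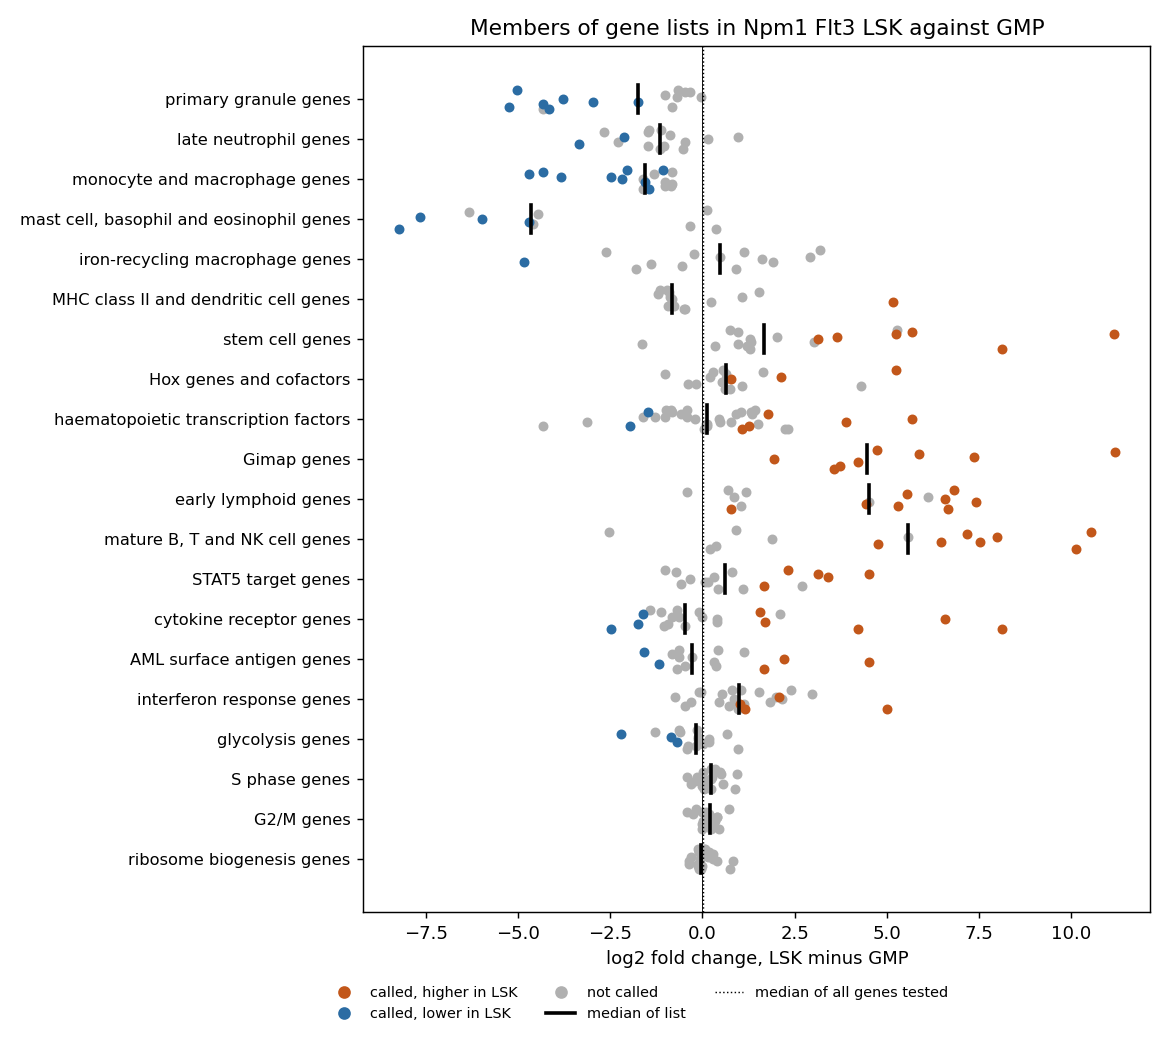
Log2 fold change, LSK minus GMP, of the tested members of 20 gene lists; each point is a gene, coloured where called, the thick bar is the median of the list and the dotted line the median of all genes tested (0.0257). Primary granule and monocyte members reach below -4, the medians of the Gimap and lymphoid lists lie above 4, and cell cycle and ribosome biogenesis members lie near 0.

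Single genes of other lineages were higher in LSK. Car2, carbonic anhydrase 2, was at 108, 170, 98.0 and 223 CPM in LSK and at 6.47, 4.49, 6.15 and 9.49 in GMP (4.49 ± 0.35, adjusted p = 0.000156); it was the only one of 9 erythroid genes tested that was called, and Gata1 (2.33, adjusted p = 0.45) and Hba-a1 (1.94, adjusted p = 0.27) did not pass. Of 7 megakaryocyte and platelet genes, 1 was called, higher in LSK, and none with the block. Siglech, a lectin of plasmacytoid dendritic cells, was at 120, 94.1, 83.2 and 68.3 CPM in LSK and at 3.77, 0.216, 4.01 and 2.04 in GMP (5.18 ± 0.71, adjusted p = 0.00359). Of 9 stromal and endothelial genes none was called by edgeR, with 2 higher by DESeq2. Among the 10 largest differences higher in LSK, under the same minimum, were also Myl10, a myosin light chain, at 132, 140, 202 and 284 CPM against 5.58, 5.82, 7.00 and 13.2 (4.58 ± 0.39, adjusted p = 0.000219), Ctla2a, a cysteine protease inhibitor, at 304, 287, 230 and 595 against 17.1, 10.6, 22.0 and 23.5 (4.27 ± 0.38, adjusted p = 0.000263), and Dok2, an adaptor that restrains tyrosine kinase signalling, at 128, 145, 159 and 127 against 12.2, 13.8, 14.4 and 9.76 (3.48 ± 0.20, adjusted p = 1.71e-05). The spread of Dok2 within each group was small beside the 11.17-fold difference.

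MHC class II genes were abundant in both populations and varied widely within them. H2-Aa, an alpha chain, was at 4677, 2099, 5095 and 1456 CPM in LSK and at 10256, 3825, 5230 and 4353 in GMP (-0.83, adjusted p = 0.37). Ciita, the coactivator that switches the class II genes on, was at 121, 78.9, 224 and 56.7 CPM in LSK and at 414, 195, 171.97 and 160 in GMP (-0.97, adjusted p = 0.29). In each of the animals that gave both populations the LSK value was below the GMP value, and with the animal as a block 6 of the 15 class II and dendritic cell genes were lower in LSK, against 0 without it; the single call without it was Siglech, which was higher. The summed list was 28190, 13670, 36260 and 8613 CPM in LSK and 64310, 29810, 33190 and 30060 in GMP (exact permutation p = 0.2).

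**Figure D3:**
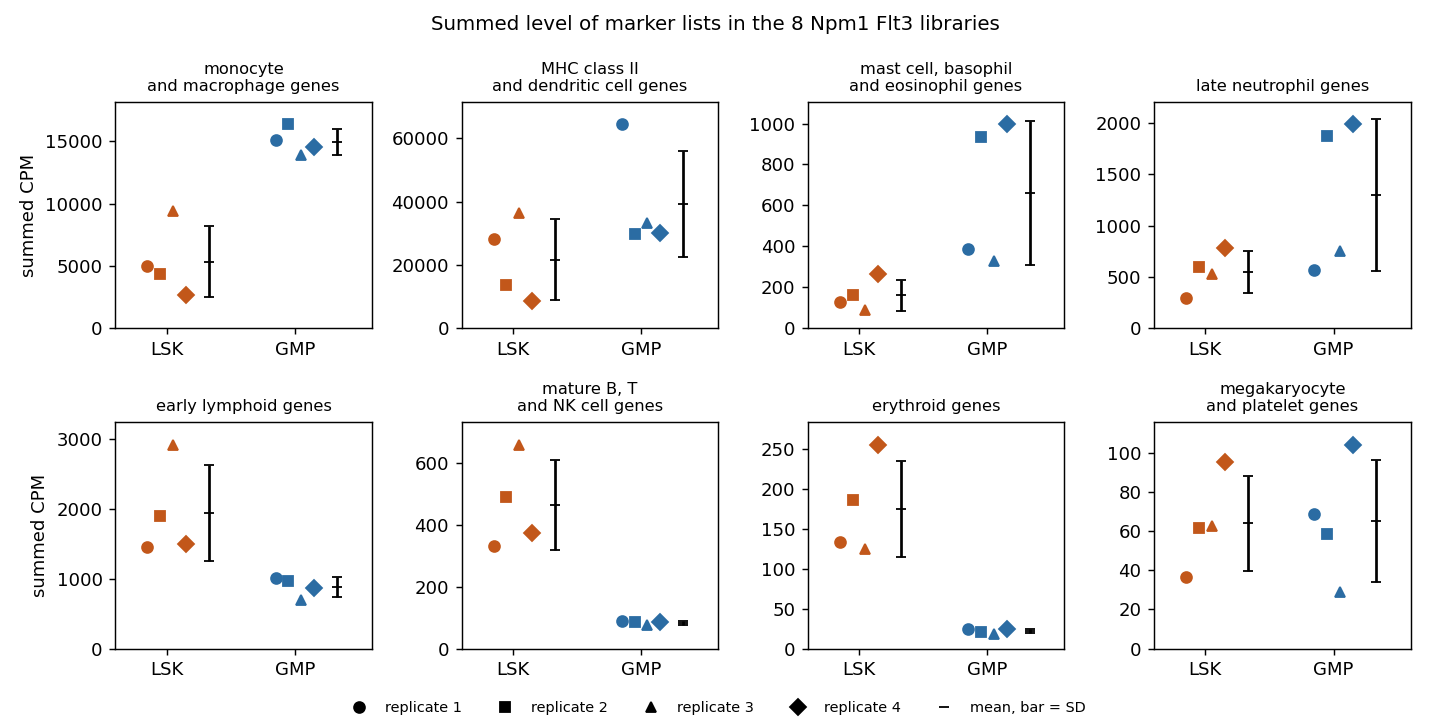
Summed CPM of 8 marker lists in each library, with the mean and SD (n = 4) beside each group and axes from 0. Monocyte and mast cell, basophil and eosinophil sums do not overlap and are lower in LSK. Early lymphoid, mature lymphocyte and erythroid sums do not overlap and are higher in LSK. The other 3 overlap. Most of the erythroid sum in LSK is Car2 alone, at 108, 170, 98.0 and 223 CPM of 133.1, 186.2, 124.7 and 255.1. Lck is a large part of the mature lymphocyte sum in LSK.

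Several transcriptional targets of STAT5 were higher in LSK: 5 of 16 on the list, with none lower (list median 0.603); the blocked fit called Myc lower (-0.78, adjusted p = 0.0337). Socs2, a feedback inhibitor of cytokine receptors, was at 450, 433, 341 and 568 CPM in LSK and at 79.1, 85.7, 113 and 78.8 in GMP (2.33 ± 0.21, adjusted p = 0.000263). Cish, another member of that family, was at 151, 137, 93.8 and 122 CPM in LSK and at 53.2, 39.4, 32.3 and 34.9 in GMP (1.66 ± 0.22, adjusted p = 0.00324). Every LSK library was above every GMP library for both. Pim2, a survival kinase, was at 131, 199, 176 and 193 CPM in LSK and at 6.28, 18.8, 8.14 and 32.5 in GMP (3.41 ± 0.49, adjusted p = 0.00486). Il2ra, the interleukin-2 receptor alpha chain CD25, was at 44.8, 44.9, 37.7 and 56.5 CPM in LSK and at 1.08, 3.36, 0.440 and 3.18 in GMP (4.52 ± 0.61, adjusted p = 0.00325). Socs3 was low in both, 3.92 to 8.17 CPM against 0.27 to 1.28 (3.14 ± 0.64, adjusted p = 0.0243), and its call was lost without LSK replicate 1, LSK replicate 2, GMP replicate 1 or GMP replicate 3 (up to 0.089, without LSK replicate 2) and with the block (0.0814). Pim1 (0.79, adjusted p = 0.23), Bcl2l1 (1.10, adjusted p = 0.1) and the cyclins Ccnd2 (0.32, adjusted p = 0.37) and Ccnd3 (0.08, adjusted p = 0.88) did not pass.

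Cytokine receptor genes divided between the populations, with 5 of 21 higher and 3 lower in LSK (list median -0.462; 5 lower with the block). Among those higher, besides Il7r, were Il18r1, a chain of the interleukin-18 receptor, at 63.0, 75.0, 37.8 and 77.2 CPM against 0.966, 3.10, 2.55 and 6.99 (4.21 ± 0.56, adjusted p = 0.00308), and Il2rg, the common gamma chain, at 89.4, 129, 110 and 118 against 28.4, 34.2, 31.9 and 42.5 (1.70 ± 0.20, adjusted p = 0.00127). Il1r1 was also higher (1.57 ± 0.31, adjusted p = 0.0225) and held in 2 of 8 fits without a library (up to 0.0858, without LSK replicate 2). Lower, besides Csf1r, were Ifngr1, a chain of the interferon-gamma receptor, at 279, 299, 327 and 178 CPM against 869, 1128, 830 and 816 (-1.75 ± 0.21, adjusted p = 0.00193), and Il6st, the shared gp130 chain (-1.61 ± 0.30, adjusted p = 0.0172), which was lost without LSK replicate 1 or GMP replicate 2 (up to 0.0672). The receptors of G-CSF, Csf3r (-1.03, adjusted p = 0.12), and of GM-CSF, Csf2ra (-1.14, adjusted p = 0.079), did not pass.

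Of 12 genes that report or restrain MAPK signalling, Dusp5, a nuclear ERK phosphatase, was higher in LSK at 69.9, 50.6, 32.4 and 126 CPM against 11.6, 9.52, 18.4 and 12.2 (2.43 ± 0.41, adjusted p = 0.0105), and Dusp6 (-0.60, adjusted p = 0.58) and Spry2 (-0.34, adjusted p = 0.88) did not pass. Of 15 early response genes, Klf6 was lower (-1.18 ± 0.28, adjusted p = 0.0482), a call lost in each of the 8 fits that left out a library (up to 0.144, without LSK replicate 2); the list median was -0.824. With the animal as a block Klf6 (0.0203), Fos (0.0107), Egr1 (0.0337) and Atf3 (0.03) were lower, and DESeq2 called 4 of the list lower. Surface antigens studied on leukaemic cells were split: 3 of 15 were higher in LSK and 2 lower (list median -0.274). Besides Il2ra, the higher ones were Cd96, a nectin-binding receptor, at 43.2, 64.5, 41.5 and 90.4 CPM against 8.45, 8.78, 16.0 and 18.6 (2.21 ± 0.37, adjusted p = 0.0099), and Gpr56, an adhesion receptor, at 391, 746, 844 and 753 against 136, 261, 196 and 260 (1.68 ± 0.28, adjusted p = 0.0103). The lower ones were Clec12a, an inhibitory lectin, at 514, 361, 362 and 379 CPM against 799, 866, 1003 and 1010 (-1.18 ± 0.17, adjusted p = 0.00499), and Havcr2, which encodes TIM-3 (-1.58 ± 0.38, adjusted p = 0.0487; 1 of 8 fits without a library, up to 0.148 without LSK replicate 2). Il3ra, CD123, did not pass (-0.46, adjusted p = 0.41).

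Of 24 interferon response genes, 4 were higher in LSK and none lower (list median 0.989). Rtp4 was at 67.9, 50.7, 82.0 and 38.1 CPM in LSK and at 2.71, 2.10, 0.831 and 1.73 in GMP (5.02 ± 0.44, adjusted p = 0.000258). Ifitm3, a membrane protein that blocks virus entry (1.01 ± 0.22, adjusted p = 0.0328), Bst2, tetherin (1.16 ± 0.23, adjusted p = 0.0239), and Ifi27l2a (2.08 ± 0.50, adjusted p = 0.0487) held in 2, 4 and 1 of 8 fits without a library (up to 0.101 and 0.0763 without GMP replicate 4, and 0.131 without GMP replicate 2). The list count fell to 1 without GMP replicate 2, 3 or 4, and the blocked fit called 4 higher and 1 lower. Irf9 (-0.09, adjusted p = 0.91), which helps carry the interferon signal to the nucleus, did not pass.

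In metabolism and DNA methylation, Idh1, the cytosolic isocitrate dehydrogenase, was at 21.6, 41.9, 42.2 and 25.3 CPM in LSK and at 136, 193, 137 and 165 in GMP (-2.27 ± 0.26, adjusted p = 0.00129). Hk3, the hexokinase of myeloid cells, was at 103, 102, 156.4 and 59.2 CPM in LSK and at 381, 626, 445 and 501 in GMP (-2.21 ± 0.29, adjusted p = 0.00273). It was 1 of 3 of the 17 glycolysis genes that were lower (5 with the block); Gpi1 (-0.71 ± 0.15, adjusted p = 0.0308) and Pgam1 (-0.87 ± 0.19, adjusted p = 0.0311) held in 1 and 2 of 8 fits (up to 0.111 and 0.12, both without GMP replicate 2), and Gapdh (-0.13, adjusted p = 0.73) did not pass. Dnmt3b, a de novo methyltransferase, was at 68.5, 73.3, 55.4 and 68.0 CPM in LSK and at 29.7, 23.0, 39.2 and 21.0 in GMP (1.23 ± 0.24, adjusted p = 0.0199). Tet1, which oxidises methylcytosine, was at 26.9 to 38.3 CPM against 8.43 to 15.7 (1.45 ± 0.28, adjusted p = 0.0208; 0.0523 with the block). Their groups did not overlap, but the calls held in 4 and 5 of 8 fits (up to 0.0779 and 0.0724, both without LSK replicate 2). Bcl2, the anti-apoptotic protein, was higher in LSK (1.12 ± 0.25, adjusted p = 0.0379; 1 of 8 fits, up to 0.104 without GMP replicate 2), the single call among 16 genes of its family. With the animal as a block Bcl2 was called (0.0184), and Bid (-0.93, adjusted p = 0.0306) and Bcl2a1a (-1.33, adjusted p = 0.0355) were called lower; DESeq2 called 2 of the family higher and 1 lower.

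Of 20 adhesion and homing genes, 1 was higher and 2 lower in LSK, Ccr2 among the lower. With the animal as a block none was higher and 4 were lower. The higher one, S1pr1, the sphingosine phosphate receptor, was at 0.452 to 9.54 CPM in LSK and 0.00901 to 0.0999 in GMP (6.13 ± 1.32, adjusted p = 0.0311), held in 2 of 8 (up to 0.095, without GMP replicate 2) and was lost with the block (0.117). Hspa5, the endoplasmic reticulum chaperone BiP, was the 1 of 12 heat shock and chaperone genes called, lower in LSK (-1.11 ± 0.23, adjusted p = 0.029; 1 of 8 fits, up to 0.0982 without GMP replicate 2). The blocked fit also called Hspe1, of the mitochondrial chaperonin, higher (0.86, adjusted p = 0.045).

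Besides the stromal and endothelial genes and the sex-linked check genes, 7 lists had no member called between the populations by edgeR with all 8 libraries and no block. These were the S phase genes (21 tested, median 0.221), G2/M genes (21, 0.194), quiescence and cell cycle inhibitor genes (12, 0.00277), p53 targets (15, 0.279), ribosome biogenesis genes (24, -0.0281), cholesterol synthesis genes (17, -0.0581) and mitochondrially encoded genes (8, -0.055). DESeq2 called 3 S phase genes higher, 2 quiescence genes higher and 1 lower, 1 p53 target higher and no member of the other 4 lists. Over all genes DESeq2 called 1643 and edgeR 642, so edgeR's shares are not a background for these counts. With edgeR, 1 cholesterol synthesis gene, Fdps, was lower with the animal as a block (-0.75, adjusted p = 0.0438), and the count in that list was also 1 without LSK replicate 3. Without LSK replicate 1, edgeR called 1 quiescence gene and 1 p53 target higher. Cdkn1a stands on both of these lists, so the counts of the lists may hold the same gene. Mki67, the proliferation antigen, had a fold change of -0.26 (adjusted p = 0.53), Cdk1, the mitotic kinase, of 0.44 (adjusted p = 0.2) and Top2a, the topoisomerase of dividing cells, of 0.24 (adjusted p = 0.41). A gap that misses the threshold at this spread between libraries does not show equal levels.

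Whether the LSK to GMP difference depended on the second mutation was tested as an interaction with Dnmt3a Flt3 mice. Of the 6 Dnmt3a Flt3 libraries, 2 were left out because title and description name different cell types, leaving LSK replicates 2 and 3 and GMP replicates 1 and 3. By the code numbers, only LSK replicate 3 and GMP replicate 3 of these came from the same animal. With the animal as a block, the Dnmt3a Flt3 fold change therefore rested on that animal alone. Of 21227 genes, 58 (0.273%) differed, 27 (0.127%) with a higher and 31 (0.146%) with a lower LSK minus GMP value in Npm1 Flt3; 1469 had an unadjusted p below 0.05. Without Dnmt3a Flt3 GMP replicate 3 the count was 5. Within this joint fit 397 genes (1.87%) were called between LSK and GMP in Dnmt3a Flt3 and 980 (4.62%) in Npm1 Flt3. Levels below are CPM in the joint fit.

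F2rl2, a thrombin-activated receptor, was at 49.3, 38.2, 51.8 and 54.2 CPM in Npm1 Flt3 LSK and at 80.0, 45.8, 49.8 and 33.3 in GMP. In Dnmt3a Flt3 it was at 24.3 and 18.0 in LSK and at 0.579 and 0.630 in GMP (difference of the 2 log2 fold changes, Npm1 Flt3 minus Dnmt3a Flt3, -5.23 ± 0.50, adjusted p = 0.000937). The single low group was thus GMP of Dnmt3a Flt3. Lck was at 507 and 408 CPM in Dnmt3a Flt3 LSK and 198 and 277 in GMP, so its fold change there was 0.94 ± 0.31, against 4.76 ± 0.26 in Npm1 Flt3 (3.82 ± 0.40, adjusted p = 0.00144). Vpreb1 was at 0.310 and 0.650 CPM in Dnmt3a Flt3 LSK and 1.68 and 1.29 in GMP, below every Npm1 Flt3 LSK library (16.5 to 101; 8.44 ± 1.01, adjusted p = 0.00376). These 3 calls held in all 12 fits that left out 1 library. With the animal as a block the differences were -4.92, 3.96 and 6.87.

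Its partner Igll1 was at 2.19 and 0.318 CPM in Dnmt3a Flt3 LSK and at 1.16 and 0.830 in GMP, and the difference missed the threshold (5.19 ± 1.08, adjusted p = 0.0661). Havcr2 was higher in GMP in Npm1 Flt3 (65.4, 62.4, 118 and 34.9 CPM in LSK, 348, 184, 150 and 176 in GMP) and higher in LSK in Dnmt3a Flt3 (75.0 and 49.8 against 7.54 and 4.79; -4.95 ± 0.64, adjusted p = 0.00606). Klf4, a factor of monocyte differentiation, behaved alike in sign, with 10.5 to 25.9 CPM in LSK and 25.3 to 84.4 in GMP of Npm1 Flt3 and 1.61 and 1.45 against 0.0434 and 0.0945 in Dnmt3a Flt3 (-6.05 ± 0.81, adjusted p = 0.00606). Without Dnmt3a Flt3 GMP replicate 3 both calls were lost (0.0642). Mcpt8 was at 89.5 and 82.0 CPM in Dnmt3a Flt3 LSK and 800 and 1017 in GMP (difference 3.55 ± 0.59, adjusted p = 0.0197) and Cpa3 at 44.6 and 21.8 and 370 and 550 (4.20 ± 0.67, adjusted p = 0.0171), whereas both overlapped between the populations of Npm1 Flt3. These 2 calls were lost without Npm1 Flt3 LSK replicate 2, Dnmt3a Flt3 GMP replicate 3 or Dnmt3a Flt3 LSK replicate 3, and Mcpt8 also without Dnmt3a Flt3 LSK replicate 2 (up to 0.14 and 0.132).

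Further differences were also lost with single libraries left out. Myl10 (3.70 ± 0.58, adjusted p = 0.0166) was at 187 and 186 CPM in Dnmt3a Flt3 LSK and 98.7 and 101 in GMP. It was lost without Dnmt3a Flt3 LSK replicate 2, LSK replicate 3 or GMP replicate 3 (up to 0.122, without LSK replicate 2). Of the Gimap genes, Gimap6 (1.95 ± 0.33, adjusted p = 0.0218) and Gimap3 (5.50 ± 0.90, adjusted p = 0.0194) had a larger fold change in Npm1 Flt3; both held in 6 of 12 fits (up to 0.235 without Dnmt3a Flt3 LSK replicate 2 and 0.135 without LSK replicate 3) and were lost with the block (0.14 and 0.131). H2-Aa (-3.38 ± 0.65, adjusted p = 0.0477) and Ciita (-3.84 ± 0.73, adjusted p = 0.0443) held in 4 of 12 fits, and with the block their differences were -3.68 and -4.34. H2-Aa was at 151 and 150 CPM in Dnmt3a Flt3 LSK and 25.8 and 27.4 in GMP, below all Npm1 Flt3 libraries. The differences for Elane (1.60 ± 0.62, adjusted p = 0.585), Mpo (0.17 ± 0.61, adjusted p = 1), Meis1 (0.32 ± 0.44, adjusted p = 0.967) and Socs2 (1.06 ± 0.32, adjusted p = 0.342) did not pass.

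**Figure D4:**
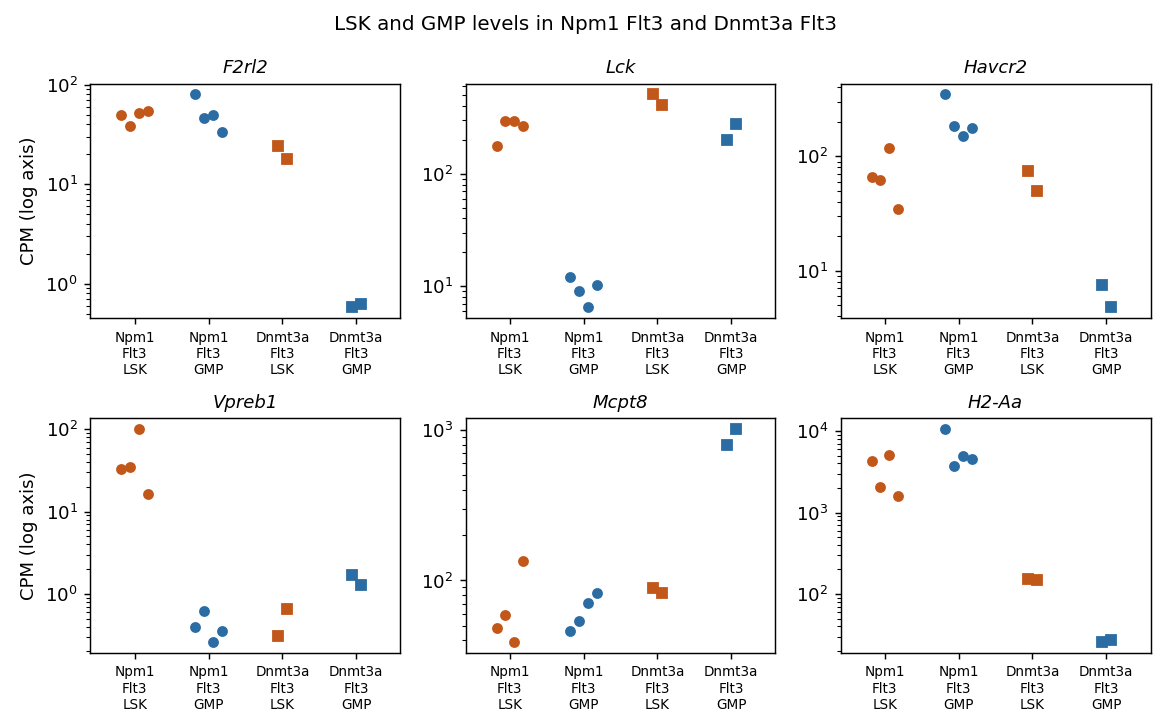
Level of 6 genes, in CPM of the joint fit on a log axis, in LSK and GMP of Npm1 Flt3 (4 and 4 libraries) and Dnmt3a Flt3 (2 and 2). F2rl2 is low in Dnmt3a Flt3 GMP, Lck is low in Npm1 Flt3 GMP, Vpreb1 is high in Npm1 Flt3 LSK, and Mcpt8 is high in Dnmt3a Flt3 GMP.

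The same interaction was tested against WT mice at 4 weeks. Those libraries stand in another count table, hold 572370 to 3030228 counts, and may come from another library kit, so only the LSK to GMP difference within each table was compared; genotype, age and table cannot be told apart. Of 11892 genes, 1177 (9.9%) differed, 767 (6.45%) with a higher and 410 (3.45%) with a lower LSK minus GMP value in Npm1 Flt3. WT GMP replicate 1 left out gave 446 and WT GMP replicate 2 left out 699; the highest count with any 1 library left out was 1502, and with the animal as a block 2134 differed. Within this joint fit 1971 genes (16.6%) were called between LSK and GMP in WT and 1659 (14%) in Npm1 Flt3. All genes described next as called held in each of the 14 fits that left out 1 library of the 2 genotypes, and with the animal as a block, unless stated.

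Flt3 itself was among them. In WT it was at 146, 196 and 204 CPM in LSK and at 21.3, 32.8 and 35.1 in GMP, a fold change of 2.58 ± 0.25, while in Npm1 Flt3 it was at 391 to 590 in LSK and 239 to 450 in GMP, 0.40 ± 0.18 (difference -2.18 ± 0.31, adjusted p = 0.000349). Kit was higher in LSK than in GMP in WT (198, 253 and 203 CPM against 70.2, 132 and 109) and had the opposite sign in Npm1 Flt3 (-1.98 ± 0.37, adjusted p = 0.00282). Socs2 was higher in LSK in both, with 72.1, 50.8 and 31.5 CPM against 2.51, 0.618 and 1.67 in WT, where its fold change was 5.20 ± 0.45 (difference -2.86 ± 0.56, adjusted p = 0.0039). Both populations of Npm1 Flt3 were above their WT counterparts, but levels in separate tables were not tested against each other. Npm1 was lower in LSK than in GMP in WT (575, 534 and 460 CPM against 922, 806 and 710; difference 0.94 ± 0.26, adjusted p = 0.0215), a call lost without WT GMP replicate 1, WT GMP replicate 2 or WT LSK replicate 3 (up to 0.133).

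Within the primary granule list, the difference divided the genes. Mpo (-0.30 ± 0.49, adjusted p = 0.764; called with the block, -0.69, 0.0409), Elane (-0.22 ± 0.61, adjusted p = 0.876) and Prtn3 (0.66 ± 0.32, adjusted p = 0.204) gave no call, while 4 of the 15 had a less negative LSK minus GMP value in Npm1 Flt3: Cst7, Ctsg, Prss57 and Nkg7. Cst7 was at 63.1, 57.5 and 78.7 CPM in WT LSK and 821, 702 and 795 in WT GMP, against 232, 273, 251 and 312 and 268, 398, 445 and 365 in Npm1 Flt3 (3.06 ± 0.25, adjusted p = 7.31e-08). Ctsg was at 234, 299 and 268 CPM in WT LSK and 6303, 4147 and 4083 in WT GMP (2.45 ± 0.36, adjusted p = 0.000654). For both genes the levels of the 2 Npm1 Flt3 populations lay between those of WT, a placement across tables that was not tested. Prss57, a granule serine protease (2.11 ± 0.34, adjusted p = 0.00138), and Nkg7, a membrane protein of cytotoxic and myeloid granules (1.41 ± 0.32, adjusted p = 0.00705), differed in the same direction. In the difference from mutant Flt3 alone at 4 weeks none of these 4 genes was called (Cst7 -0.10, adjusted p = 0.941, and Ctsg -0.23, adjusted p = 0.894).

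The genes with the smallest p included 4 more at high levels. Mgst2, a microsomal glutathione transferase, was at 56.0, 45.3 and 52.6 CPM in WT LSK and 230, 231 and 337 in GMP, and at 97.9 to 206 and 68.7 to 113 in Npm1 Flt3 (2.98 ± 0.34, adjusted p = 3.75e-05). Smarca2, an ATPase of the SWI/SNF complex, was at 69.9, 57.5 and 55.8 CPM in WT LSK and 7.52, 14.2 and 13.4 in GMP, and at 23.9 to 31.8 and 38.6 to 58.1 in Npm1 Flt3 (-3.004 ± 0.37, adjusted p = 7.33e-05). It was the higher population that differed: LSK in WT and GMP in Npm1 Flt3. Plac8 (2.00 ± 0.27, adjusted p = 0.000214) and Lgals1, galectin-1 (2.34 ± 0.32, adjusted p = 0.000214), had fold changes of -2.42 and -2.44 in WT and overlapped between the populations of Npm1 Flt3.

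Among lymphoid genes, Vpreb1 was at 3.54, 1.10 and 4.29 CPM in WT LSK and 3.76, 9.28 and 3.34 in GMP, overlapping, against the wide gap in Npm1 Flt3 (7.63 ± 0.96, adjusted p = 0.000103). Igll1 rested on 1 WT LSK library, at 0.322, 0 and 0 CPM, with 3.76, 1.85 and 7.52 in WT GMP; the interaction was called (10.39, adjusted p = 0.000654), but with so few counts in WT its size is not a measure of the fold. Lck (0.24 ± 0.58, adjusted p = 0.856), Dntt (1.22 ± 1.84, adjusted p = 0.747) and Gimap6 (-0.61 ± 0.36, adjusted p = 0.317) gave no call and were higher in LSK in WT too. Gimap6 was at 280, 223 and 233 CPM in WT LSK and 10.0, 14.2 and 10.9 in GMP. Of 19 stem cell genes, 1 had a higher and 2 a lower LSK minus GMP value in Npm1 Flt3. Mllt3, a cofactor of stem cell self-renewal, was at 44.8, 39.8 and 25.4 CPM in WT LSK and 2.51, 2.47 and 1.67 in GMP, and at 14.3 to 20.2 and 4.08 to 15.8 in Npm1 Flt3 (-3.05 ± 0.74, adjusted p = 0.0102). Hlf (-2.07, adjusted p = 0.0476) held in 4 of 14 fits (up to 0.255, without WT LSK replicate 1) and was lost with the block (0.0505). Neither Meis1 (-0.86 ± 0.35, adjusted p = 0.128) nor Mecom (-0.27 ± 0.88, adjusted p = 0.9) nor Hoxa9 (-0.21 ± 0.34, adjusted p = 0.769) passed.

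Early response genes leaned towards GMP in Npm1 Flt3 and towards LSK in WT: 6 of 14 had a lower LSK minus GMP value in Npm1 Flt3 and none a higher one (list medians -0.753 in Npm1 Flt3 and 1.06 in WT). Fos was at 1164, 822, 1360 and 489 CPM in Npm1 Flt3 LSK and 3024, 2239, 1512 and 1610 in GMP, and at 79.2, 96.1 and 128 in WT LSK and 41.4, 53.2 and 59.3 in GMP (-2.10 ± 0.46, adjusted p = 0.00674). Jun, its AP-1 partner, was at 37.6 to 68.1 CPM in LSK and 78.1 to 108 in GMP of Npm1 Flt3 and at 128 to 200 and 67.7 to 80.2 in WT (-1.96 ± 0.33, adjusted p = 0.0016). Klf6 (-2.42 ± 0.47, adjusted p = 0.00348) and Zfp36, an RNA decay factor (-1.98 ± 0.47, adjusted p = 0.0099), differed likewise. Egr1 and Dusp1 were also lower but were lost without single libraries (up to 0.103 without WT LSK replicate 3 and 0.0646 without WT GMP replicate 1).

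Differences also touched lists with few or no calls within Npm1 Flt3. The LSK minus GMP value was higher in Npm1 Flt3 than in WT for 6 of 24 ribosome biogenesis genes, 4 of 21 S phase genes and 4 of 17 glycolysis genes, with none lower. In each of these 3 lists 2 of the calls held in all 14 fits: Nop10 and Nhp2, Tyms and Gins2, and Gpi1 and Tpi1. The others were lost with single libraries: Rrp9 and Pcna without WT GMP replicate 1 alone (0.0896 and 0.0684), and Npm1, Nop16, Wdr12, Dut, Pgam1 and Gapdh in 3 to 10 of the 14 fits (up to 0.176, for Wdr12 without WT GMP replicate 2). Nop10, a component of the pseudouridine-forming ribonucleoprotein, was at 192, 162, 199 and 416 CPM in Npm1 Flt3 LSK and 122, 103, 167 and 180 in GMP, and at 806, 774 and 767 in WT LSK and 2025, 1647 and 1686 in GMP (1.95 ± 0.34, adjusted p = 0.0019). Tyms, thymidylate synthase (1.01 ± 0.21, adjusted p = 0.0053), and Cdk1 (1.16 ± 0.25, adjusted p = 0.00575) differed in the same direction: each was higher in GMP in WT and had fitted values above 0 in Npm1 Flt3. Of 21 G2/M genes, 5 were higher (Cdk1, Birc5, Cks2, Ube2c and Ccna2) and 2 lower (Mki67 and Cenpe). Of these 7 calls only Cdk1 held in all 14 fits; Birc5 and Mki67 held in 13, Cks2 in 11, Cenpe in 10, Ube2c in 8 and Ccna2 in 4 (up to 0.201, for Ccna2 without WT GMP replicate 1).

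Iron-recycling macrophage genes were present in the WT LSK libraries, where the list median of the fold change was 2.93 against 0.476 in Npm1 Flt3, and 5 of 13 were lower in the difference. Vcam1, Slc40a1 and Mrc1 held in all 14 fits, while C1qb (-2.64, adjusted p = 0.0243) and Hmox1 (-4.31, adjusted p = 0.0141) held in 11 and were lost without WT LSK replicate 3 (0.142 and 0.148), WT GMP replicate 1 or WT GMP replicate 2. Vcam1 was at 38.0, 79.5 and 282 CPM in WT LSK and 41.4, 29.1 and 50.9 in GMP (-6.59 ± 1.29, adjusted p = 0.00599), and Slc40a1, ferroportin, at 43.8, 89.5 and 297 and at 21.3, 17.9 and 27.6 (-5.30 ± 0.93, adjusted p = 0.00242). WT LSK replicate 3 was the highest for both. The part of those cells in the other WT differences was not tested.

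Smaller interactions were seen for genes higher in LSK in both genotypes. Car2 (1.44 ± 0.37, adjusted p = 0.0146), Ctla2a (1.37 ± 0.42, adjusted p = 0.0401) and Dok2 (1.14 ± 0.35, adjusted p = 0.0371) had a larger fold change in Npm1 Flt3. They held in 12, 6 and 7 of 14 fits (up to 0.0706, 0.186 and 0.253, all without WT GMP replicate 2).

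**Figure D5:**
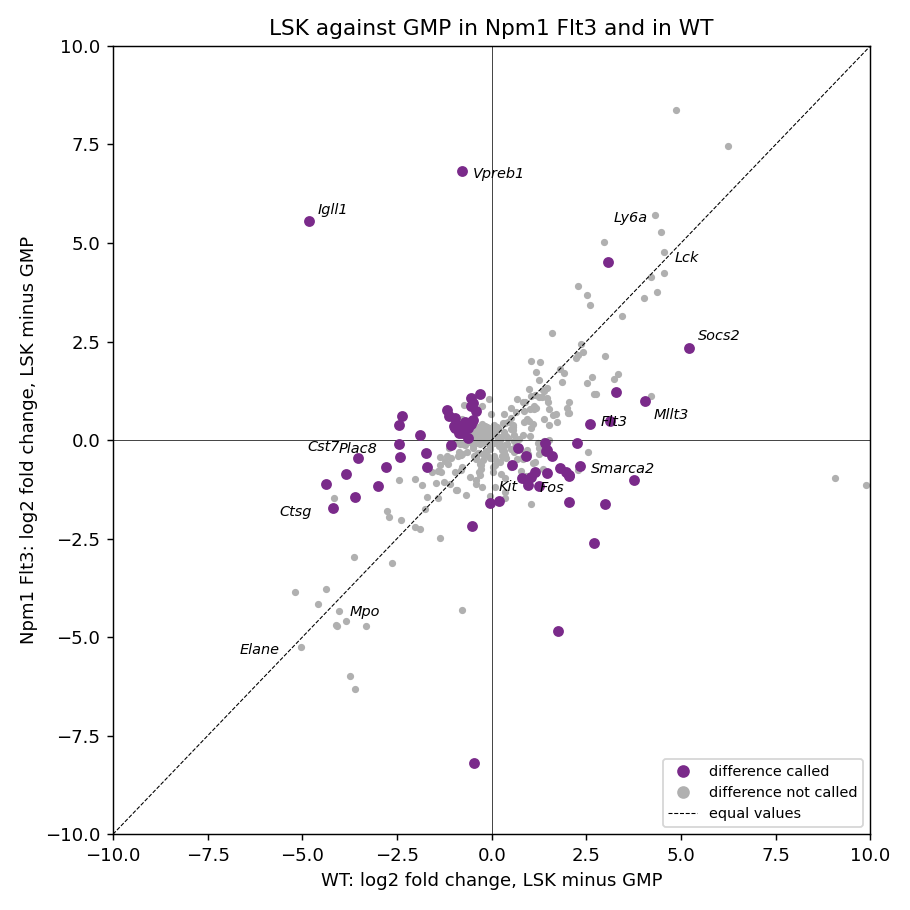
Log2 fold change, LSK minus GMP, in WT (horizontal axis) and in Npm1 Flt3 (vertical axis) from the joint fit, for 362 list and named genes whose mean log2 CPM is at least 2 (Igll1 and Vpreb1 are added below it); the 73 whose difference was called are in purple. Mpo and Elane lie near the line of equal values, Igll1 and Vpreb1 far above it, and Flt3, Socs2, Mllt3 and Smarca2 below it.

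Against mice with mutant Flt3 alone at 4 weeks, 3 of 11892 genes (0.0252%) differed, all with a higher LSK minus GMP value in Npm1 Flt3, while 982 had an unadjusted p below 0.05 and DESeq2 called 40. With the animal as a block the count was 313. Between LSK and GMP of these Flt3 mice 163 genes (1.37%) were called. Cpa3 was at 3.99, 8.76 and 9.94 CPM in Flt3 LSK and 131, 146 and 240 in Flt3 GMP, and at 32.4 to 120 and 31.1 to 68.6 in Npm1 Flt3 (4.86 ± 0.58, adjusted p = 0.0005; held in all 14 fits without a library and with the block). Ddah2, which degrades inhibitors of nitric oxide synthase, was at 38.0, 34.0, 39.9 and 42.6 CPM in Npm1 Flt3 LSK and 6.20, 8.16, 8.34 and 5.76 in GMP, and at 26.6, 38.5 and 36.9 in Flt3 LSK and 27.4, 42.2 and 20.6 in GMP (2.26 ± 0.40, adjusted p = 0.0293). It held in 8 of 14 fits (up to 0.223, without Flt3 GMP replicate 2). The third, Fgf3, a fibroblast growth factor gene named here after its values were seen, was low throughout, at 4.59 to 12.3 and 0.0699 to 0.856 CPM in LSK and GMP of Npm1 Flt3 and 0.962 to 5.25 and 7.67 to 20.1 in Flt3 (6.47 ± 1.08, adjusted p = 0.0206).

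The Flt3 transcript was at 268, 228 and 246 CPM in Flt3 LSK and 128, 137 and 162 in Flt3 GMP, and its interaction did not pass (-0.39 ± 0.29, adjusted p = 0.734). Socs2 was at 906, 1072 and 1025 CPM in Flt3 LSK and 498, 564 and 535 in Flt3 GMP, with a fold change of 0.91 ± 0.23 against 2.34 ± 0.21 in Npm1 Flt3 (difference 1.43 ± 0.31, adjusted p = 0.0818). Lgals1 (1.67 ± 0.31, adjusted p = 0.054), Gimap6 (1.64 ± 0.33, adjusted p = 0.0755), Mcpt8 (2.04 ± 0.42, adjusted p = 0.0755) and Gata2 (2.55 ± 0.52, adjusted p = 0.0755) were close to the threshold. With the animal as a block these 5 genes were called (Socs2 0.000664, Lgals1 0.00372, Gimap6 0.00546, Mcpt8 0.000542 and Gata2 0.000542). The 3 interactions share the 8 Npm1 Flt3 libraries and are not independent of each other.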

How the data were processed

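RNA was measured in LSK cells and GMP sorted from Npm1 Flt3 mice (4 libraries each) and in the reference groups named in the report. Per the labels' protocols, cells were sorted into Trizol, RNA was extracted with Direct-Zol columns, and libraries were made with either a paired-end or a single-end 3′ Takara kit, without saying which sample had which. Per the submitters' processing notes the tools were STAR and featureCounts with genome build mm10; versions, annotation and strand setting are not given in the sources used here. The values are whole-number read counts per gene as deposited, not normalized by the authors, so genes that share reads with a copy, overlapping genes and antisense partners may be split or joined.

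The counts were tested with edgeR 4.0.16 (filterByExpr, trimmed-mean scaling, robust quasi-likelihood F test, Benjamini-Hochberg adjustment, threshold 0.05) in R 4.3.3, over all genes and checked on simulated data. Every adjusted p in the text comes from edgeR unless another tool is named; the SE is the log2 fold change divided by the square root of F. Differences between genotypes are interaction terms. Library measures used exact two-sided permutation tests. Intervals and floors (3 counts over a group) cover counting error only, and p-values measure the spread between these samples. Alternatives used DESeq2 1.42.0, limma 3.58.1, other filters and scalings, thinned counts, libraries left out in turn and replicate blocks. The 2 Dnmt3a Flt3 libraries with conflicting cell types were left out.

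Named genes were the mutated genes and sort markers; the 10 largest called changes each way at a mean log2 CPM of at least 4 without overlap, passing over predicted, clone-named and sex-linked genes; up to 4 members of each list with the smallest p; and the 5 smallest p of each interaction. Further list members are given as examples or as genes that did not pass, chosen after their values were seen. The members and the 36 gene lists (536 genes, of which 524 matched by symbol, 8 by synonym and 4 not at all) were chosen with earlier results of these data known. Some genes that the rule names are not reported here. Promoters are from RefSeq's table on GRCm38.p6.

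Pairing was read from the code numbers in the descriptions: codes 1, 2 and 5 each gave both populations. Deviations from the group means of same-code libraries correlated at 0.226, 0.21 and 0.0813 across genes, and those of other LSK and GMP pairs at -0.162 to 0.194.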

Additional observations from a re-analysis of the deposited data

Results flagged for a closer look

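In 1 of 50 groups of 4 libraries examined, a library lay far from the other 3: Npm1 in LSK replicate 4, at 1846 CPM against 1136 to 1254 in the other LSK libraries. Chance flags about 1 in 20 such groups.

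The remaining results are differences between genotypes in the log2 fold change of LSK against GMP, each tested as an interaction with edgeR and given as Npm1 Flt3 minus the reference. Against Dnmt3a Flt3 these were F2rl2 (-5.23), Havcr2 (-4.95), Lck (3.82), Myl10 (3.70) and Gimap6 (1.95). F2rl2 and Lck held in all 12 fits that left out 1 library, and the other 3 did not. Against WT at 4 weeks they were Igll1 (10.39, with 1 of 3 WT LSK libraries above 0), Cst7 (3.06), Smarca2 (-3.004), Mgst2 (2.98), Lgals1 (2.34), Flt3 (-2.18), Plac8 (2.00), Kit (-1.98), Car2 (1.44), Ctla2a (1.37), Dok2 (1.14) and Npm1 (0.94). Car2, Ctla2a, Dok2 and Npm1 were lost with single libraries left out, and the other 8 held in all 14 fits. Against mutant Flt3 alone at 4 weeks they were Cpa3 (4.86), which held in all 14 fits, and Ddah2 (2.26), which held in 8. Genotype, age and count table cannot be told apart in the comparisons with the 4-week mice.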

How the results depend on the processing

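The count of 642 genes called between LSK and GMP was 1643 with DESeq2, 980 with all 12 sorted libraries in 1 fit and 1412 with limma voom and a random block on the code number. Without single libraries it was 249 (LSK replicate 2) to 653 (LSK replicate 3), with 292 without GMP replicate 2, 320 without GMP replicate 4, 331 without LSK replicate 1 and 371 without GMP replicate 3. With the code number as a replicate block 812 were called, 253 higher and 559 lower in LSK, against 353 and 289 without it, and 394 were shared. That fit rests on the 3 animals that gave both populations, which alone gave 817, with 394 shared. Blocking on the replicate number of the title, which does not follow the code numbers in the third replicate, gave 314. Of 104 called named genes, 59 held in all 8 fits without a library and 82 with the block.

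Of 496 list members tested, 19.8% (98) were called, 31.9% with DESeq2, and 11.8% (without LSK replicate 2) to 17.8% without single libraries, 12.2% without GMP replicate 2. The difference from Dnmt3a Flt3 was called for 0.273% of genes (58), 1.85% (393) with DESeq2, 0.3% (94) with no filter, 0.899% (99) with a filter of 5 CPM, 0.796% with the 2 libraries of conflicting labels and 0.198% (42) with the replicate block. Without single libraries it was 0.0211% (5, without Dnmt3a Flt3 GMP replicate 3) to 0.371% (78), with 20 and 21 genes without Dnmt3a Flt3 LSK replicates 2 and 3, 27 without Npm1 Flt3 LSK replicate 2, and 37 without Npm1 Flt3 LSK replicate 1 or Dnmt3a Flt3 GMP replicate 1. The difference from WT gave 1177, 2134 with the block, and 446 to 1502 without single libraries (753 without WT LSK replicate 3). That from Flt3 at 4 weeks gave 3, 40 with DESeq2, 7 with thinned counts, 313 with the block, and 1 to 12 without single libraries. The library measure, the top-50 share in LSK minus GMP, was -3.98 percentage points and -4.343 to -3.362 without single libraries. No called gene changed direction. Neither Lgals1 (-0.11) nor F2rl2 (-0.10) was called between LSK and GMP in Npm1 Flt3, and each changed sign: Lgals1 ranged from -0.287 to 0.0532 without single libraries (the highest without LSK replicate 2) and F2rl2 from -0.281 to 0.137 (the highest without GMP replicate 1). The cause of these shifts was not tested. On simulated data, a 4-fold change was recovered for 42% of the changed genes between LSK and GMP (15537 genes), for 14% in the difference from Dnmt3a Flt3 (21227 genes), and for 46% and 43% in those from WT and Flt3 at 4 weeks (11892 genes each); for a 2-fold change the shares were 7%, 0%, 4% and 1%.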
